A study of Mus musculus with 10 samples.

Results

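The 35 genes described here encode the machinery that copies DNA in S phase: the MCM helicase and the proteins that load and start it, primase and polymerases, the sliding clamp and its loader, the enzymes that join lagging strand fragments, chromatin factors behind the fork and the enzymes that supply deoxynucleotides. They were listed by name, with no threshold on a measured value, and 34 of the 35 had a value among the 18193 genes of the array. Chaf1a, the large subunit of the chromatin assembly factor CAF-1, had no probe set annotated to it alone. Distal colon RNA came from 10 Rag1-/- mice of the C57BL/6 strain, 1 array per mouse, which make no T or B cells of their own and were 4 to 5 months old. The 3 severely and 3 moderately inflamed mice were injected with naïve T cells, a transfer that causes colitis, and the 4 non-inflamed control mice with regulatory T cells (Treg). Injection took place at 10 weeks of age and their colons were taken 2 to 3 months later. The transferred T cells were therefore the only T cells of either group. The labels name Trizol for the RNA extraction, whereas the study's methods name a column kit.

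Values are log2 levels per probe set, so a difference of 1 is a doubling, and each gene is represented by its brightest probe set. A level cannot be set against that of another gene, since each probe set has its own brightness. A gene is said to have risen or fallen where its adjusted p in limma, over all genes, was below 0.05. Colon tissue was measured as a whole, with markers of epithelium, leukocytes and muscle all present. In such bulk tissue a change in the share of a cell type and a change in RNA per cell cannot be told apart.

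Replication begins in G1, when the origin recognition complex, CDC6 and CDT1 load the ring of MCM2-7 on DNA. Cyclin E with CDK2, and CDC7 with DBF4, then turn the ring into a moving helicase together with CDC45, the GINS complex and MCM10. Most of these genes are transcribed at the G1 to S transition under E2F factors, and in the colon they are expressed by the dividing cells of the lower crypt and by any leukocytes or stromal cells that cycle.

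Replication genes did not move as 1 block in colitis. Of the 34 genes, 14 rose and 2 fell in inflamed against control colons, while 18 did not pass (limma, 6 against 4 arrays). These are 41.2% higher and 5.88% lower calls, where 18.5% of all genes were called higher and 21.2% lower, or 47.1% called in all against 39.7% of all genes. The median difference of the 34 genes was 0.23 on the log2 scale, against 0.03 for all genes. Rrm2 stood at the top of the range with a difference of 1.79, and Pola1 at the bottom with -0.68. The rises other than that of Rrm2 lay between 0.33 for E2f1 and 0.79 for Fen1. All 6 inflamed arrays were above all 4 control arrays for 8 of the 34 genes (Rrm2, Rrm1, Fen1, Mcm10, Ccne1, Rfc5, Rpa2 and E2f1), where this held for 14.6% of all genes. All 6 lay below the controls for 1 gene, Prim1, where this held for 17.1% of all genes.

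**Figure D1:**
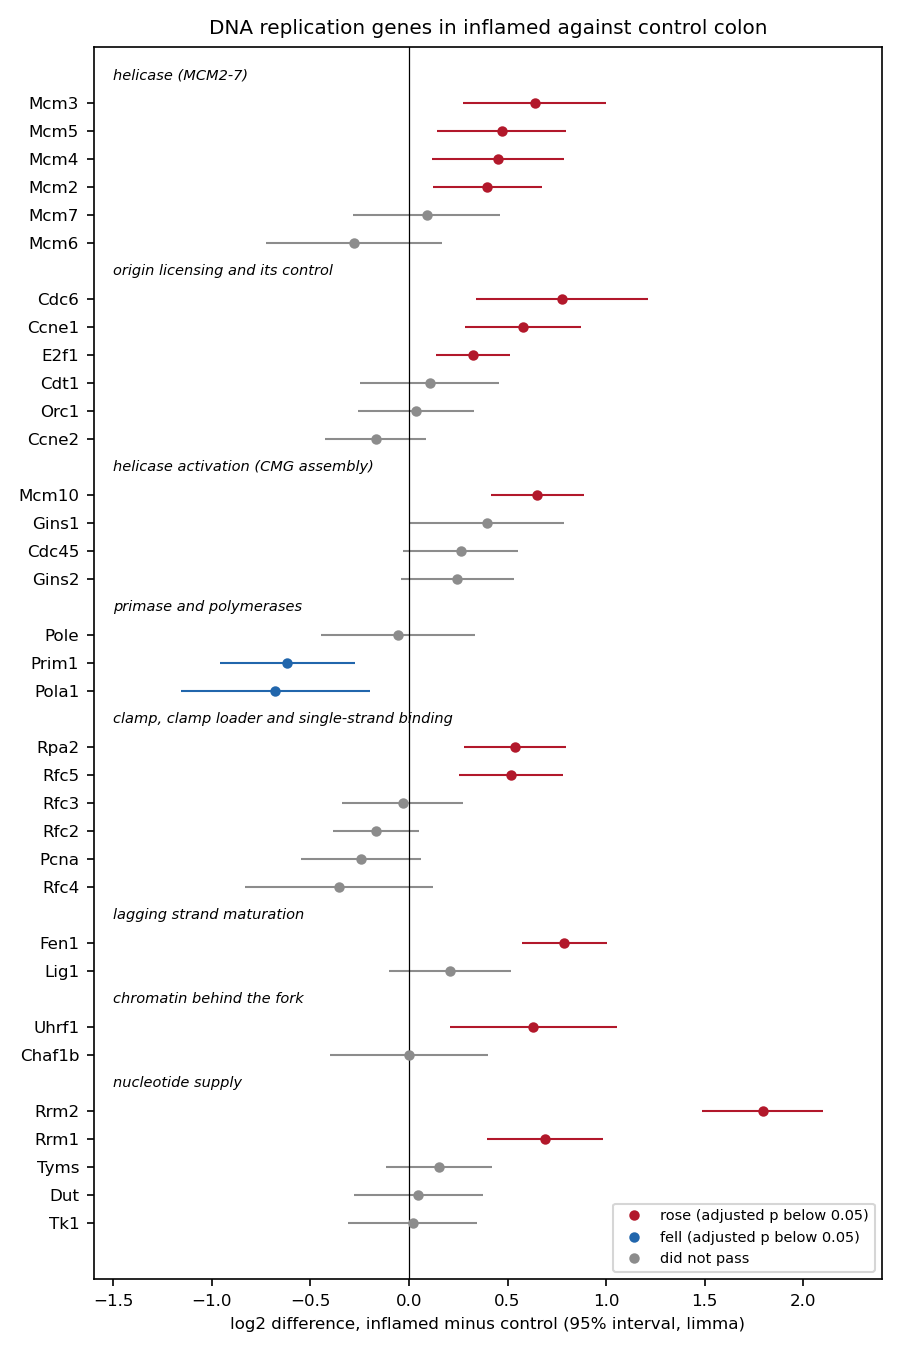
Log2 difference of each replication gene, inflamed (6 arrays) minus control (4 arrays), with its 95% interval from limma, grouped by role. Red genes rose, blue genes fell and grey genes did not pass. Rrm2 lies far to the right at 1.79, and only Prim1 (-0.62) and Pola1 (-0.68) fell.

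Promoter sequences are shown for the called genes with the largest differences whose start region holds an E2F motif, and for Rrm2, whose region holds none. They come from RefSeq on build GRCm38.p6, each read along the gene's own strand and counted from base 1 at the annotated start. The search covered 250 bases before and 50 after that start, on both strands, for TTTCCCGC, TTTCGCGC, TTTGCCGC and TTTGGCGC. In the first 3 lines the capitals mark these letters or their complement. In Rrm2 they mark CCAAT, the box read by NF-Y.
Cdc6, chr11:98907951-98908150, plus strand: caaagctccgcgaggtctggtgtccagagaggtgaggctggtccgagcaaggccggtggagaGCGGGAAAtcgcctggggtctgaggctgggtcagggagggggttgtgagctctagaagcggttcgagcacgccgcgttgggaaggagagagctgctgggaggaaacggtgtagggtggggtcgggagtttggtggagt
Pola1, chrX:93632156-93632355, minus strand: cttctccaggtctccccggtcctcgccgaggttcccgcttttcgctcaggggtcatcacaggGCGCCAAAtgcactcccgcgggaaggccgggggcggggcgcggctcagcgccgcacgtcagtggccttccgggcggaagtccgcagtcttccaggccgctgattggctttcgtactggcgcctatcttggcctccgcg
Mcm3, chr1:20820265-20820294, minus strand: gGCGGGAAAacttgggaagtTTTGGCGCca
Rrm2, chr12:24708054-24708253, plus strand: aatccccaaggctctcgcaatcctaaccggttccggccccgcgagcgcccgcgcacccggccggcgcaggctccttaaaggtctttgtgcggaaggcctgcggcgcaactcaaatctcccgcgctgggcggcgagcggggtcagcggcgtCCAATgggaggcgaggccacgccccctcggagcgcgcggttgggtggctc
The motif begins at base -138 in both Cdc6 and Pola1, as TTTCCCGC in Cdc6 and TTTGGCGC in Pola1, each on the strand opposite to the gene. The 30 bases of Mcm3 lie after the start, from base 19 on, and hold TTTCCCGC at base 20 and TTTGGCGC at base 39. Cdc6 and Mcm3 rose and Pola1 fell.

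Of the 35 genes, 29 had an entry in the promoter table, and 11 of these 29 (37.9%) held an E2F motif, against 2.6% of all 27025 genes of the table and 2.26% of its windows. The holders were Mcm3, Mcm5, Mcm6, Mcm7, Orc1, Cdc6, Cdt1, Pola1, Rfc3, Lig1 and Uhrf1. The motif was in 4 of the 13 genes with an entry that rose (Mcm3, Mcm5, Cdc6 and Uhrf1), in 1 of the 2 that fell (Pola1) and in 6 of the 13 that did not pass. CCAAT, which is short enough to be frequent, was in 17 of the 29 genes and in 41.1% of all genes. These matches describe letters only. Ccne2, Gins1, Gins2, Rfc2, Mcm4 and Pole were not in the table.

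The helicase genes split. Mcm2, Mcm3, Mcm4 and Mcm5 rose, whereas Mcm6 and Mcm7 did not pass, although the proteins form a single ring. Mcm3 measured 9.17, 8.56 and 8.67 in severe, 8.96, 8.38 and 9.07 in moderate, and 8.07, 7.94, 8.54 and 8.11 in control colons. Moderate replicate 2 fell below the third control mouse, and the other inflamed arrays were above every control. The difference was 0.64 ± 0.17 (SE, 1.56-fold, adjusted p = 0.00921). Mcm5 differed by 0.47 (adjusted p = 0.0255), Mcm4 by 0.45 (adjusted p = 0.0347) and Mcm2 by 0.40 (adjusted p = 0.026), and in each of these 3 genes the groups overlapped. None of the 3 calls held without control replicate 1, 2 or 4 (adjusted p 0.0571 to 0.0981), and that of Mcm4 was also lost without severe replicate 1, moderate replicate 1 or moderate replicate 3. When probe sets were averaged, Mcm5 differed by 0.30 (adjusted p = 0.117) and Mcm2 by 0.27 (adjusted p = 0.167), and neither passed. By the methods' t-test after adjustment over all genes, none of Mcm2, Mcm4 and Mcm5 passed.

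Mcm7 measured 10.50, 9.96 and 10.10 in severe, 10.58, 9.89 and 10.65 in moderate, and 10.06, 10.00, 10.53 and 10.17 in control colons. The inflamed arrays lay on both sides of the controls, and the difference was 0.09 (95% interval -0.28 to 0.46, adjusted p = 0.709). Mcm6 differed by -0.28 with a wide interval (-0.73 to 0.17, adjusted p = 0.308). Within each array, the Mcm3 value minus the Mcm6 value ran from -0.47 to -0.01 in inflamed and from -1.21 to -0.99 in control colons, with no overlap. This pair was chosen after the values were seen, so the gap is given with no test.

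Among licensing genes and their control, Cdc6, Ccne1 and E2f1 rose. Cdc6, the loader that is rebuilt in each cell cycle, measured 6.75, 5.98 and 6.32 in severe, 6.73, 5.95 and 6.79 in moderate, and 5.35, 5.48, 6.04 and 5.69 in control colons. The lowest inflamed arrays, severe replicate 2 and moderate replicate 2, reached just under the highest control, and the difference was 0.78 ± 0.20 (SE, 1.71-fold, adjusted p = 0.0086). Ccne1, which encodes the cyclin E1 that drives entry into S phase, differed by 0.58 (adjusted p = 0.00489) and E2f1 by 0.33 (adjusted p = 0.00955), both with no overlap between groups. When probe sets were averaged, E2f1 differed by 0.17 and did not pass (adjusted p = 0.076). Ccne2, encoding the second E cyclin, differed by -0.17 (adjusted p = 0.273), and Cdt1, the partner of CDC6 in loading, by 0.11 (adjusted p = 0.641).

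Orc1, the largest subunit of the origin recognition complex, had the highest p in this role. It measured 6.64, 6.22 and 6.67 in severe, 6.72, 6.25 and 6.75 in moderate, and 6.68, 6.22, 6.64 and 6.48 in control colons. The 3 groups covered nearly the same range, and the difference was 0.04 (95% interval -0.26 to 0.33, adjusted p = 0.861).

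Of the 4 genes for helicase activation Mcm10 rose, and the other 3 had positive differences that did not pass with the brightest probe set. Mcm10 measured 7.81, 7.50 and 7.64 in severe, 7.88, 7.48 and 7.88 in moderate, and 7.19, 6.81, 7.12 and 7.06 in control colons. Every inflamed array exceeded every control array, with a difference of 0.65 ± 0.11 (SE, 1.57-fold, adjusted p = 0.000544). When its probe sets were averaged the difference was 0.28 and passed (adjusted p = 0.00676). Its 2 dimmer probe sets, at mean levels of 4.93 and 3.27, measured 0.12 and 0.08. Gins1 and Cdc45, which travel with the ring as part of the active helicase, differed by 0.39 (adjusted p = 0.103) and 0.26 (adjusted p = 0.143). Gins1 passed without severe replicate 2 (adjusted p = 0.0461), with probe sets averaged (0.32, adjusted p = 0.0332) and with quantile normalization repeated, and Cdc45 passed with the last of these. The average of Gins1 includes a dim probe set that itself passed (0.245, adjusted p = 0.0342). Its mean level was 3.59, where the mean lower quartile of the arrays was 3.86. Gins2 measured 8.05, 7.61 and 7.87 in severe, 7.98, 7.59 and 8.18 in moderate, and 7.37, 7.65, 7.85 and 7.67 in control colons. Its groups overlapped, with a difference of 0.25 (adjusted p = 0.164).

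The 2 genes that fell encode parts of the enzyme that starts each new strand. Pola1, the catalytic subunit of DNA polymerase alpha, measured 7.22, 6.72 and 6.77 in severe, 7.50, 6.69 and 7.82 in moderate, and 7.75, 7.87, 8.04 and 7.53 in control colons. Moderate replicate 3 was among the controls and the other 5 inflamed arrays were below all of them. The difference was -0.68 ± 0.22 (SE, adjusted p = 0.0277). That call did not hold without control replicates 1, 2 or 3, severe replicates 2 or 3, or moderate replicate 2, each left out in turn (adjusted p 0.052 to 0.0857). Nor did it hold by the methods' t-test after adjustment over all genes (adjusted p = 0.0702). It was also lost when the probe sets of Pola1 were averaged (-0.28, adjusted p = 0.113). That average includes a dim probe set, with a mean level of 3.45 where the mean lower quartile of the arrays was 3.86. Prim1, the small primase subunit that makes the RNA primer, is shown although the rule for array values did not choose it. It measured 8.21, 7.76 and 7.85 in severe, 8.23, 7.64 and 8.48 in moderate, and 8.62, 8.51, 8.88 and 8.58 in control colons. All 6 inflamed arrays lay below all controls, with a difference of -0.62 ± 0.16 (SE, adjusted p = 0.00774). Pola2 and Prim2, the partner subunits in the same complex, differed by 0.06 (adjusted p = 0.719) and 0.21 (adjusted p = 0.1).

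Pole, the catalytic subunit of the leading strand polymerase epsilon, measured 6.37, 5.85 and 5.64 in severe, 6.27, 5.72 and 6.40 in moderate, and 6.07, 5.78, 6.44 and 6.09 in control colons. Its groups covered the same range, and the difference was -0.05 (95% interval -0.45 to 0.34, adjusted p = 0.837).

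The clamp, its loader and the single-strand binding protein gave 2 rises among 6 genes. Rpa2, the middle subunit of replication protein A, measured 8.24, 7.83 and 7.82 in severe, 8.04, 7.69 and 8.05 in moderate, and 7.34, 7.22, 7.68 and 7.38 in control colons. The lowest inflamed array exceeded the highest control by a small margin, and the difference was 0.54 ± 0.12 (SE, 1.45-fold, adjusted p = 0.00334). When its probe sets were averaged, Rpa2 differed by 0.20 and did not pass (adjusted p = 0.333). Rfc5 rose by 0.52 (adjusted p = 0.00466), while the other small subunits of the clamp loader, Rfc2, Rfc3 and Rfc4, had differences of -0.17, -0.03 and -0.36. Pcna, the clamp itself, had a difference of -0.24 (95% interval -0.55 to 0.06, adjusted p = 0.191).

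Rfc3 measured 7.45, 6.99 and 6.98 in severe, 7.52, 6.80 and 7.42 in moderate, and 7.19, 7.18, 7.32 and 7.20 in control colons. The controls were close together and the inflamed arrays fell on both sides of them (adjusted p = 0.878). Rfc4 was spread more widely in inflamed colons, with an SD of 0.49 (n = 6) against 0.10 in control colons (n = 4), and its difference did not pass (adjusted p = 0.222). Without moderate replicate 3 it was -0.51 and passed (adjusted p = 0.0319).

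In lagging strand maturation, Fen1, the flap endonuclease that trims each fragment, rose with the smallest adjusted p after Rrm2. It measured 10.60, 10.40 and 10.30 in severe, 10.72, 10.25 and 10.48 in moderate, and 9.64, 9.53, 9.78 and 9.73 in control colons. The groups were well apart, with a difference of 0.79 ± 0.10 (SE, 1.73-fold, adjusted p = 7.72e-05). Lig1, the ligase that seals the fragments, measured 9.03, 8.45 and 8.76 in severe, 9.01, 8.60 and 8.97 in moderate, and 8.33, 8.47, 8.90 and 8.68 in control colons. Its groups overlapped and the difference of 0.21 did not pass (95% interval -0.10 to 0.52, adjusted p = 0.275).

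Behind the fork, Uhrf1, which recruits the maintenance methyltransferase to new DNA, rose. It measured 9.05, 8.61 and 8.75 in severe, 9.29, 8.31 and 9.12 in moderate, and 7.94, 8.08, 8.67 and 8.20 in control colons. Moderate replicate 2 and severe replicate 2 were below control replicate 3, and the difference was 0.63 ± 0.19 (SE, 1.55-fold, adjusted p = 0.0219). The call did not hold without control replicates 1, 2 or 4 (adjusted p 0.0506 to 0.0752), nor when probe sets were averaged (0.43, adjusted p = 0.1), nor by the methods' t-test after adjustment over all genes (adjusted p = 0.0583). Chaf1b, the middle subunit of CAF-1, measured 6.33, 5.96 and 5.97 in severe, 6.54, 5.90 and 6.55 in moderate, and 5.84, 6.16, 6.71 and 6.12 in control colons. The group means were equal to the first decimal, at 6.21 ± 0.31 in inflamed (SD, n = 6) and 6.21 ± 0.36 in control colons (SD, n = 4).

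Nucleotide supply held the largest difference and also some of the smallest. Rrm2, the small subunit of ribonucleotide reductase, which limits the making of deoxynucleotides in S phase, measured 10.46, 10.13 and 10.13 in severe, 10.18, 9.63 and 10.15 in moderate, and 8.29, 8.11, 8.58 and 8.29 in control colons. The lowest inflamed array was more than 1 log2 unit above the highest control, and the difference was 1.79 ± 0.14 (SE, 3.47-fold, adjusted p = 5.01e-06). Rrm1, the large subunit of the same enzyme, rose by 0.69 ± 0.13 (SE, 1.61-fold, adjusted p = 0.00155). It rose by 0.31 when its probe sets were averaged (adjusted p = 0.0168). Its second probe set, at a mean level of 7.40, measured 0.04, and its dimmest, at 2.91, measured 0.21. Within each array, Rrm2 minus Rrm1 ran from 0.09 to 0.64 in inflamed and from -0.85 to -0.65 in control colons, a gap chosen after the values were seen and not tested.

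Tk1, the cytosolic thymidine kinase of S phase, measured 8.15, 7.71 and 7.99 in severe, 8.29, 7.58 and 8.37 in moderate, and 7.85, 7.96, 8.17 and 8.01 in control colons. The controls sat in the middle of the inflamed range, and the difference was 0.02 (95% interval -0.31 to 0.35, adjusted p = 0.938). Dut, which clears dUTP, differed by 0.05 (adjusted p = 0.83). Tyms, encoding thymidylate synthase, averaged 4.06 in inflamed and 3.91 in control colons, close to the lower quartile of all probe sets (3.82 to 3.92 by array), so its difference of 0.15 says little about the transcript.

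**Figure D2:**
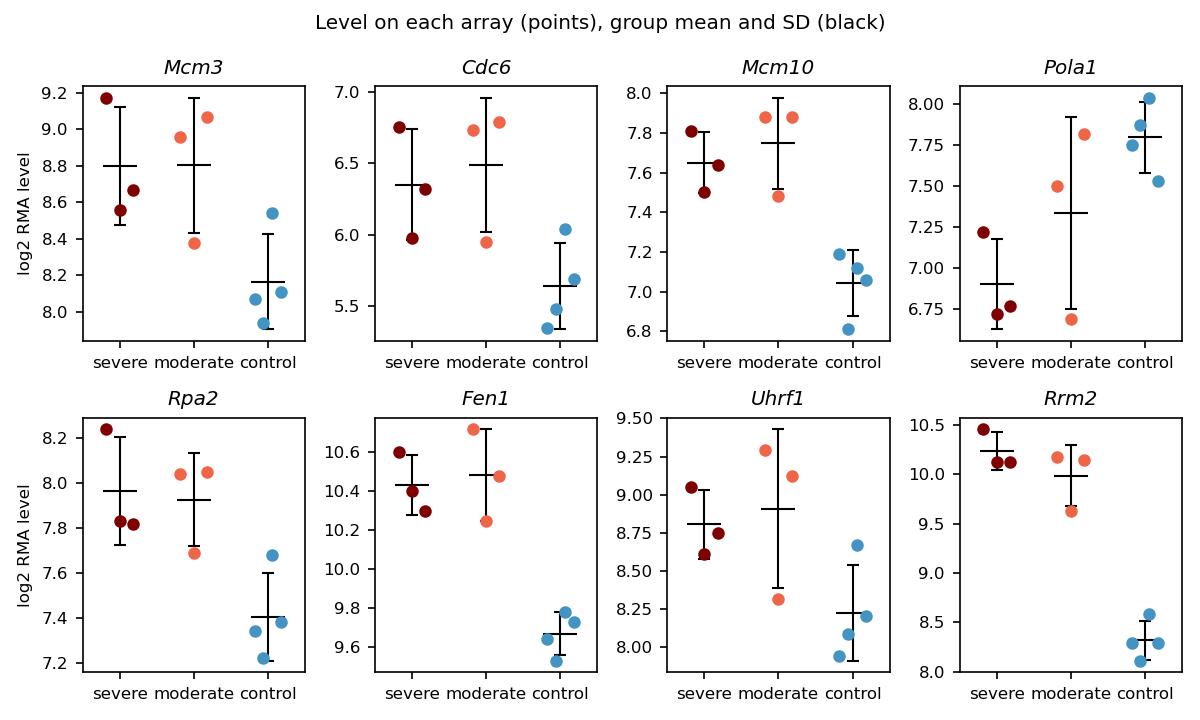
Log2 level on each array of the gene with the largest called difference in each role, for severe (3), moderate (3) and control (4) colons. Black marks give the group mean and SD. Rrm2, Fen1, Mcm10 and Rpa2 separate inflamed from control arrays, Pola1 is lower in 5 of the 6 inflamed arrays than in all controls, and moderate replicate 2 is the lowest inflamed array in all 8 panels.

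The replication genes also varied together from mouse to mouse within a group. Moderate replicate 2 was the lowest of the 6 inflamed arrays for 27 of the 34 genes, where it was lowest for 18.1% of all genes. Moderate replicate 3 was the highest for 18 genes, moderate replicate 1 for 9 and severe replicate 1 for 6. Among controls, replicate 3 was the highest for 29 of the 34 genes, where it was highest for 28.6% of all genes. The mean over the 34 genes was 8.41, 7.98 and 8.09 in severe, 8.44, 7.88 and 8.48 in moderate, and 7.87, 7.87, 8.20 and 7.94 in control colons. Severe replicate 2, severe replicate 3 and moderate replicate 2 thus stood below the third control mouse in this mean. Genes of 1 array share its RNA and its labelling, so these counts describe the arrays and carry no test.

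Marker genes of other cell types were read beside this order. The mean over 6 measured T cell markers was 7.62, 6.79 and 7.22 in severe, 7.55, 6.80 and 6.80 in moderate, and 5.28 to 5.51 in control colons. The mean over 7 macrophage and monocyte markers was 9.69, 8.34 and 8.97 in severe, 9.11, 8.28 and 8.39 in moderate, and 7.12 to 7.32 in control colons. The mean over 7 smooth muscle markers was 9.93, 9.64 and 9.86 in severe, 10.51, 9.67 and 10.39 in moderate, and 11.44 to 11.86 in control colons. The 3 inflamed arrays highest in replication genes, moderate replicates 3 and 1 and severe replicate 1, were also the 3 highest in smooth muscle markers. Moderate replicate 2, the lowest in replication genes, was the lowest in macrophage and monocyte markers, and its T cell mean equalled that of moderate replicate 3 to 2 decimals. The mean over 8 epithelial markers was 13.09 to 13.23 in inflamed and 12.98 to 13.08 in control colons. The mean over 8 measured proliferation markers was 9.38, 8.99 and 9.15 in severe, 9.40, 8.78 and 9.47 in moderate, and 8.41 to 8.63 in control colons, so that the inflamed arrays kept the order seen in the replication genes, while control replicate 3, at 8.44, was not the highest control.

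**Figure D3:**
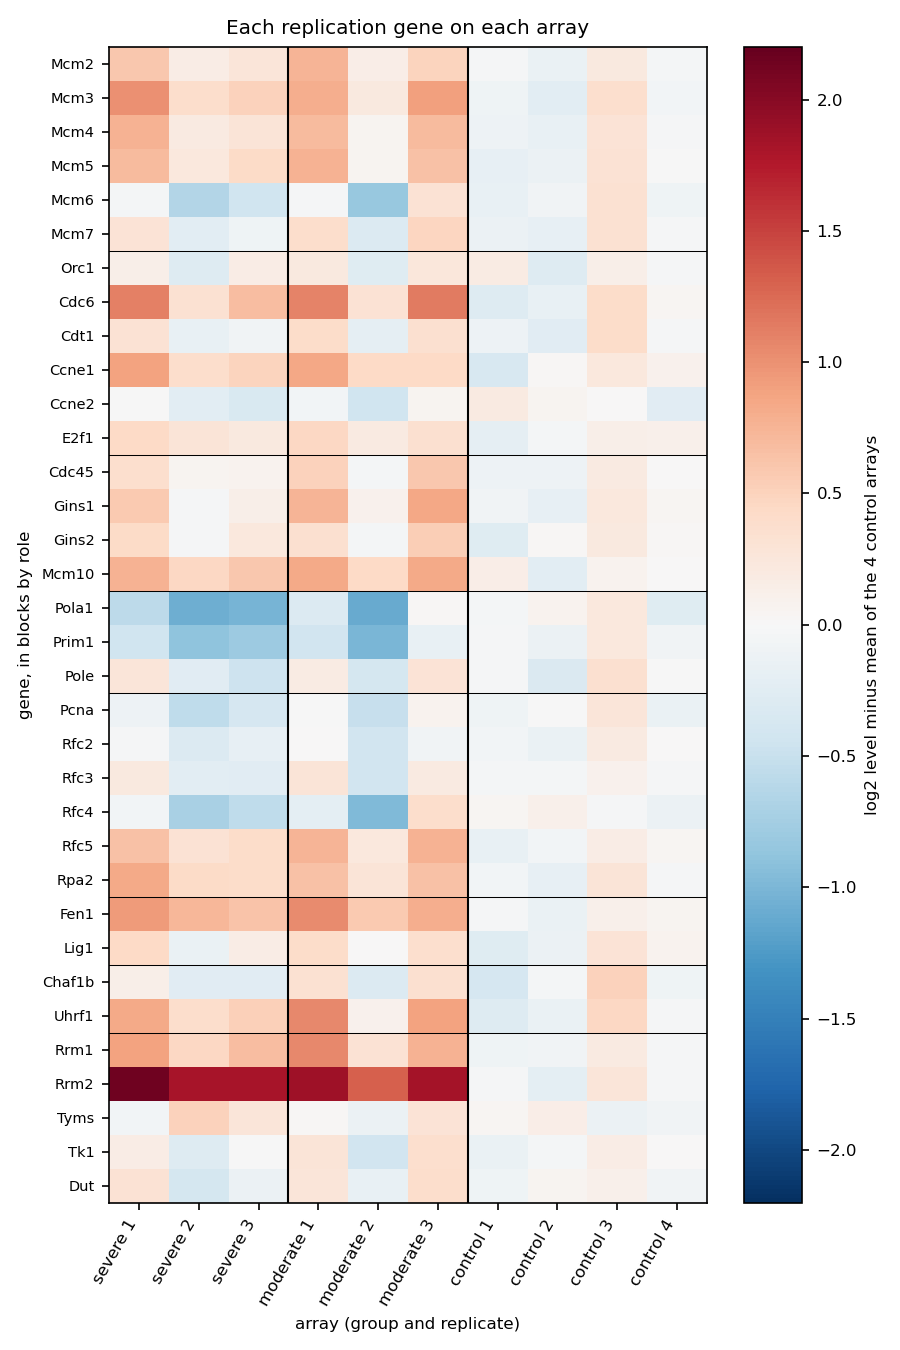
Log2 level of each of the 34 replication genes on each array, minus the mean of the 4 control arrays, with genes in blocks by role and arrays ordered severe, moderate and control. Red is higher and blue lower than the control mean. Rrm2 is deep red on all inflamed arrays, and the columns of severe replicate 2 and moderate replicate 2 are paler or bluer than those of severe replicate 1, moderate replicate 1 and moderate replicate 3.

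Each grade of inflammation was also set against the same 4 controls. In severe colons 10 genes rose (29.4%, where 16.1% of all genes were called higher) and 2 fell (5.88%, where 18.9% were called lower). In moderate colons 11 rose (32.4%, where 13.2% of all genes were called higher) and 0 fell, where 16.7% of all genes were called lower. Called in both grades were 10 genes, Mcm3, Cdc6, Ccne1, E2f1, Mcm10, Rfc5, Rpa2, Fen1, Rrm1 and Rrm2. Mcm2 passed in moderate colons alone, and Pola1 and Prim1 in severe colons alone. Prim1 came close in moderate colons (-0.53, adjusted p = 0.053), with every moderate array below every control. Mcm2 differed by 0.335 in severe colons (adjusted p = 0.117). In the direct test between the grades, given below, none of these genes passed. Mcm4, Mcm5 and Uhrf1 passed only with the 6 inflamed arrays together. Rrm2 differed by 1.92 in severe and by 1.67 in moderate colons, and Pola1 by -0.90 and -0.46.

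With 3 arrays a grade, these counts hung on single arrays. The severe count of 12 was 6 without severe replicate 1 (4 higher and 2 lower) and 6 without severe replicate 3 (6 higher and 0 lower). Of all 18193 genes, 6366 were called in severe colons, 5637 without severe replicate 1 and 5093 without severe replicate 3. The moderate count of 11 was 5 without control replicate 1, 6 without control replicate 2, 4 without moderate replicate 1 and 7 without moderate replicate 3. Of all genes, 5447 were called in moderate colons, and 4637, 4635, 4260 and 4991 in these settings in turn. By the methods' t-test with Benjamini-Hochberg adjustment the counts were 7 in severe and 3 in moderate colons.

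The difference between the grades was tested itself, and 0 of the 34 genes passed, as did 0% of all genes. At an unadjusted p below 0.05, limma gave 0 of the 34 genes and 922 of all genes, and the methods' t-test 0 and 643. Severe minus moderate differences ran from -0.43 for Pola1 (95% interval -1.0 to 0.13, adjusted p = 0.986) to 0.25 for Rrm2 (95% interval -0.12 to 0.63, adjusted p = 0.99). They were below 0 in 30 of the 34 genes, which share the same arrays, with a median of -0.113 against -0.005 for all genes. These values hung on moderate replicate 2 in part. Without it 11 of the 34 genes had an unadjusted p below 0.05 in limma, beside 1313 of all 18193 genes. Without severe replicate 1 it was 3, beside 822 of all genes. After adjustment 0 of the 34 genes passed in both. The difference of Pola1 was -0.76 without moderate replicate 2 (adjusted p = 0.272) and -0.19 without moderate replicate 3 (adjusted p = 0.963). For 20 of the 34 genes the 95% interval reached past 0.5 on the log2 scale on at least 1 side, so similar levels in the 2 grades are not shown.

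**Figure D4:**
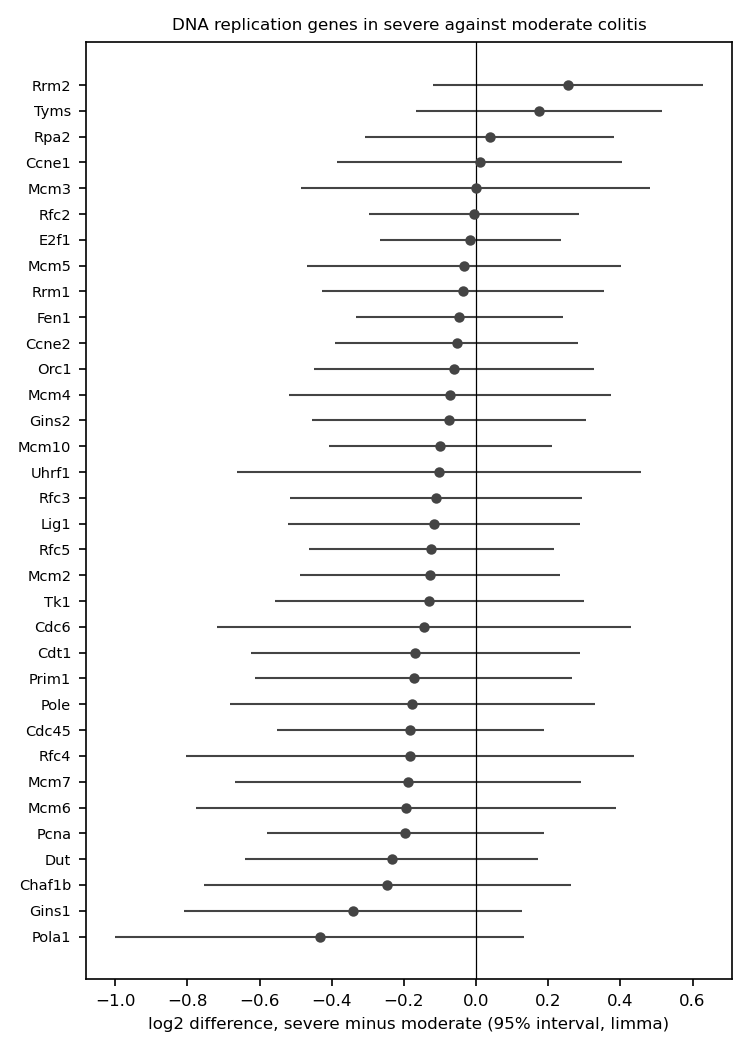
Log2 difference of each replication gene, severe (3 arrays) minus moderate (3 arrays), with its 95% interval from limma, ordered by size. The point estimates run from -0.43 for Pola1 to 0.25 for Rrm2 and every interval includes 0.

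The other genes of the pathway were listed by function. Of 48 further replication genes, 14 rose (29.2%, where 18.5% of all genes did) and 4 fell (8.33%, where 21.2% did), with a median difference of 0.12. Cdc7, the kinase that fires licensed origins, and Dbf4, its activating subunit, led the list with rises of 1.38 ± 0.12 (SE, 2.61-fold, adjusted p = 6.91e-06) and 0.93 ± 0.11 (SE, 1.91-fold, adjusted p = 5.37e-05). Cdc7 measured 8.10, 7.85 and 8.15 in severe, 7.93, 7.85 and 8.0 in moderate, and 6.85, 6.22, 6.65 and 6.67 in control colons, with a narrow spread in the inflamed group. The 4 that fell were Orc5 (-0.56), Rpa3 (-0.39), Mcm9 (-0.31) and Slbp (-0.28), which encode an origin recognition subunit, the small subunit of replication protein A, a helicase of recombination repair and the binding protein of histone mRNA ends.

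Of 15 further genes of nucleotide supply, 6 rose (40.0%) and 4 fell (26.7%, near the 21.2% of all genes), with a median of -0.10. Cda, a pyrimidine salvage enzyme, fell by 1.52 ± 0.20 on the log2 scale (SE, adjusted p = 9.68e-05), and Samhd1, which breaks down dNTPs and is abundant in myeloid cells, rose by 1.45 ± 0.24 (SE, 2.74-fold, adjusted p = 0.000507). The other falls were Paics (-0.57), Shmt1 (-0.47) and Rrm2b (-0.22), the last encoding the reductase subunit that serves outside S phase. Of 20 genes of E2F and G1 to S control, 8 rose (40.0%) and 4 fell (20%, near the share of all genes), with a median of 0.17. E2f2, an activating E2F, rose by 1.34 ± 0.13 (SE, 2.53-fold, adjusted p = 1.8e-05), more than E2f1, and E2f7, an E2F that represses, by 0.94 ± 0.15 (SE, 1.92-fold, adjusted p = 0.000428). Tfdp2, an E2F partner, fell by 0.93, E2f5 by 0.64, Rbl2 by 0.31 and Cdkn1b by 0.31 on the log2 scale.

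Of 8 measured proliferation markers, which mark mostly G2 and mitosis, 6 rose and 0 fell, with a median of 0.81. Called higher were thus 75.0%, where 18.5% of all genes were, and 21.2% of all genes were called lower. Birc5 and Plk1 rose by 1.03 ± 0.12 (SE, 2.04-fold, adjusted p = 3.79e-05) and 0.96 ± 0.12 (SE, 1.95-fold, adjusted p = 6.98e-05). The median difference of the 34 replication genes, 0.23, was lower than theirs. Both lists and the replication genes were read from the same arrays, and no test of the difference between lists was made.

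Markers of other cell types moved with the groups. All 6 measured T cell markers, all 7 macrophage and monocyte markers and all 6 neutrophil markers rose, where 18.5% of all genes did. The mean level of the neutrophil list was 6.39 to 9.06 in inflamed and 4.14 to 5.08 in control colons. All 7 smooth muscle markers fell, where 21.2% of all genes did. Of 8 epithelial markers, 2 rose (Cldn7 and Krt19) and 6 did not pass, and of 5 colon identity markers 2 fell (Car1 and Muc2). Of 6 transit amplifying and crypt base markers 5 fell (Lgr5, Myb, Smoc2, Ascl2 and Axin2). Olfm4 went the other way and did not pass (1.325, adjusted p = 0.0793). The mean level of the list was 6.56 to 7.12 in inflamed and 7.09 to 7.21 in control colons. That mean includes Olfm4, whose own mean level lay below the mean lower quartile of the arrays. Of 5 endothelial markers 3 fell (Tek, Pecam1 and Kdr), and of 6 fibroblast markers 3 (Lum, Dcn and Col3a1). The other fibroblast markers, Col1a1 (0.41), Pdgfra (0.11) and Col1a2 (-0.34), did not pass. Ms4a1 rose among 4 B cell markers, whose mean level was 4.31 to 4.55 in inflamed and 4.09 to 4.35 in control colons. The part of these cell types in the differences of the replication genes, and in their order over the arrays, was not tested.

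The probe sets of a gene gave a further reading. The 34 genes had 76 probe sets, of which 24 were called higher and 2 lower, where 16.5% of all single-gene probe sets were called higher and 19.4% lower. Rrm2 rose on all 3 of its probe sets (1.79, 1.56 and 1.26), Fen1 on both (0.79 and 0.81), Mcm4 on both (0.45 and 0.73), Ccne1 on both (0.58 and 0.33) and Mcm3 on 4 of 5. A dim probe set of Mcm5 also passed (0.34, adjusted p = 0.0302), while its middle one measured 0.09. For 8 of the 16 called genes (Mcm2, E2f1, Mcm10, Pola1, Prim1, Rpa2, Uhrf1 and Rrm1) the other probe sets did not pass. The second probe set of Rrm1 measured 0.04 (adjusted p = 0.86), that of Mcm2 0.14 (adjusted p = 0.577), that of Rpa2 -0.14 (adjusted p = 0.64), and that of Prim1 -0.30 (adjusted p = 0.152). Cdc6 and Rfc5 had 1 probe set each.

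Probe sets with x in the name hold probes that may also match other genes, and those with s match several transcripts. Of the called genes, 6 were read from such probe sets (Mcm2, Mcm3, Mcm5, Ccne1, Fen1 and Rrm2). With only the other probe sets, an alternative chosen after the data were seen, 14 of the 16 called genes passed and Mcm2 and Mcm5 did not. Ccne1 then differed by 0.33. Of the 6 helicase genes 2 then passed, Mcm3 (adjusted p = 0.0498) and Mcm4.

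**Figure D5:**
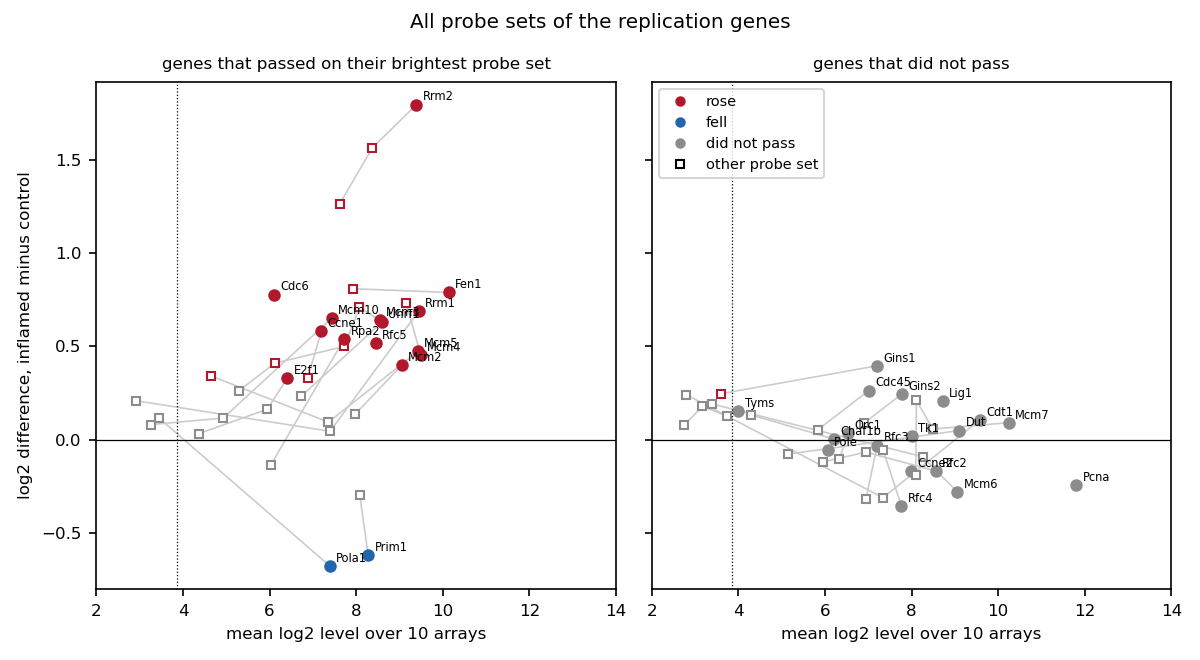
Log2 difference, inflamed minus control, of every probe set of the replication genes against its mean log2 level over the 10 arrays. Filled circles are the probe sets used, open squares the others, and lines join probe sets of 1 gene. The dotted line is the mean lower quartile of the arrays. The 3 probe sets of Rrm2 lie above all others. The other probe sets of Rrm1 (0.04 and 0.21), Rpa2 (-0.14) and Pola1 (0.11) lie nearer to 0 than those used.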

How the data were processed

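Values per probe set are on the log2 scale as deposited. The labels' tool list names Affymetrix Expression Console and RMA for the authors' processing, and versions are not given in the sources used here. Scanned images, scan dates and detection calls were not analysed here, so scan batches and signal over background were not examined. Probe sets annotated to 1 gene were kept (34945 of 45101), and the brightest stood for its gene.

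Tests were two-sided fits with limma 3.58.1 (lmFit, eBayes) under R 4.3.3, with Benjamini-Hochberg adjustment over 18193 genes. The inflamed arrays were set against the control arrays as 2 groups, and the grades were compared in a fit of all 3 groups. Fits were tested on simulated data. Alternatives were the value per gene, a filter on dim genes, scaling, variance model, the methods' t-test, design, replicate number as a block and each array left out. The genes and lists were set by name, with earlier results of these data known. Array values are given, per role, for the called gene with the largest difference and the gene with the largest p, and in each other list the 2 largest called differences are named. The number of arrays limits the precision. Figures were drawn with matplotlib 3.10.9.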

Additional observations from a re-analysis of the deposited data

Results flagged for a closer look

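Each of the 34 replication genes was looked at for a single array far from the rest, in the 6 inflamed and in the 4 control arrays. Of these 68 groups of values 1 stood out: Rfc3 in control replicate 3, at 7.32, against 7.18 to 7.20 in the other 3 control mice. Chance gives about 1 in 20 such groups, or 3.4 here. The same mouse was the highest control for 29 of the 34 genes.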

How the results depend on the processing

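Of the 16 genes called in inflamed against control, 9 kept the call under every alternative run, and none of the 16 changed sign. The count of 16 was 11 to 16 with 1 array left out (11 without control replicate 1 or 2) and 11 both with the mean over probe sets and by the methods' t-test after adjustment. Of all genes, 7222 were called in the main fit, 6312 without control replicate 1 and 6414 without control replicate 2. The mean over probe sets gave 7105 of all genes and the adjusted t-test 6836. With quantile normalization repeated the count was 18, beside 7327 of all genes. Leaving out 1 array gave 6 to 14 called genes in severe against control (5093 to 6439 of all genes). In moderate against control it gave 4 to 16 (4260 to 5597 of all genes). The methods' t-test gave 7 in severe and 3 in moderate colons (5392 and 3837 of all genes). For severe against moderate, 0 to 20 of all genes were called with 1 array left out (20 without moderate replicate 2, 5 without severe replicate 2, 1 without moderate replicate 1) and 0 of the replication genes.

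Between inflamed and control colons, signs turned in 7 of the 34 genes, none of which had passed. These were Pole and Tk1 with an array left out, Mcm7 (-0.19 with only probe sets without x or s), Orc1 (-0.036) and Dut (-0.015), both with the mean over probe sets, Rfc3 (0.021 with quantile normalization repeated) and Chaf1b (-0.027 with the replicate block). With 1 array left out the range was -0.059 to 0.10 for Orc1, -0.16 to 0.06 for Pole, -0.098 to 0.045 for Rfc3, -0.12 to 0.17 for Chaf1b, -0.02 to 0.14 for Dut and -0.053 to 0.11 for Tk1. For severe against moderate, where the sign was followed in the 16 genes with array values under the rule, it turned in Mcm3 (0.007 with the mean over probe sets, 0.015 with arrays centred), Rpa2 (-0.014) and Orc1 (0.015), both with that mean. With 1 array left out the range was -0.21 to 0.13 for Mcm3, -0.41 to 0.04 for Cdc6, -0.10 to 0.11 for Rpa2, -0.16 to 0.071 for Fen1, -0.40 to 0.088 for Uhrf1, -0.22 to 0.086 for Orc1, -0.24 to 0.057 for Gins2, -0.33 to 0.025 for Rfc3, -0.26 to 0.032 for Lig1 and -0.38 to 0.016 for Tk1. The causes were not tested.

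The replicate block left 16 called genes in inflamed against control, beside 6625 of all genes. Deviations from the group means correlated at -0.08 to 0.29 in same-numbered arrays of different groups and at -0.31 to 0.17 in the other pairs. The highest were severe with moderate replicate 1 (0.29) and severe with moderate replicate 2 (0.25), whereas severe with moderate replicate 3 gave -0.03. The labels call the numbers biological replicates and give no pairing, so the main fits took the mice as unpaired. The number of arrays limits the precision, and signal over background was not examined.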
